A study of Mus musculus with 2 samples.

Results

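Cftr and the aquaporins are the chloride channel and the water channels through which epithelia secrete and absorb fluid. Members were taken by gene symbol, as Cftr or any aquaporin on the array, which gave 12 genes (Cftr and 11 aquaporins) on 19 probes, out of 16928 genes and 25697 probes in all. The family includes the array's CFTR, AQP1, AQP3, AQP4, AQP5 and AQP8. It was chosen by function with the signals of these same arrays already known, Cftr, Aqp5 and Aqp4 differing widely between them, so its values are a description and carry no test. Glandular stomach RNA of 1 mouse labelled Agr2 null and 1 mouse labelled Agr2 wild-type was hybridized to 1 Illumina bead array each. Both mice are labelled female and aged 26 weeks. Agr2 encodes a protein disulfide isomerase relative that mucus-secreting cells need. How the null allele was made, and the strain of the mice, are not stated in the sources used here. There was 1 array per group, so differences have no replicate check and precision is limited by that number.

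Cftr opens in the apical membrane when cyclic AMP rises and passes chloride and bicarbonate, and water follows the ions into the lumen. Aquaporins are pores that let water, and in some members glycerol, cross membranes along an osmotic gradient. In the rodent gut Cftr is abundant in duodenal crypts and Brunner's glands and in pancreatic ducts. Each aquaporin has its own cell types, so a whole-tissue sample reads them as a mixture. In such a sample fewer cells of a type and less RNA per cell cannot be told apart.

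Agr2 itself went against the labels, with a signal of 3406 on the array labelled null and 972 on the array labelled wild-type. Where its only probe lies relative to the deleted part is not stated in the labels, and a probe outside that part checks nothing. Xist read 1774 on the array labelled null and 186 on the array labelled wild-type, and the Y-linked Eif2s3y read 134 and 2096 on those arrays, although both mice are labelled female. Y-linked Ddx3y, at 2138 and 5332 on those arrays, was above background on both. Y-linked Jarid1d, at 119 and 303, was above background only on the array labelled wild-type. Genotype label and sex cannot be told apart here, and arrays are called by their labels. Whether the genotype labels were exchanged was not tested, and an exchange would reverse every direction by genotype given here. Signals are linear probe intensities as deposited. Background was read from 1314 probes for olfactory and vomeronasal receptors, whose 99th percentile was 227 on the array labelled null and 200.4 on the array labelled wild-type. A gene was called detected on an array where fewer than 1% of those probes were as bright. Differences are log2 values, null minus wild-type, after background correction and quantile normalization, and folds come from them. Where a gene was below background on 1 array, the fold is a bound, written as at least, on this corrected scale. The plain ratio of 2 signals still holds the background light of the array, so it can be smaller than such a bound. A probe's brightness does not measure amount across genes, so levels are compared only within a probe. The brightest probes reached 57194 on the array labelled null and 57640 on the array labelled wild-type, and differences between signals near that ceiling are compressed.

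Of the 12 members, 6 were detected on at least 1 array by their brightest probe, against 55.3% of all genes on the array. They were Cftr, Aqp1, Aqp3, Aqp4, Aqp5 and Aqp11. Cftr, Aqp5 and Aqp11 were at least 2-fold higher on the array labelled null, where 13.1% of 9359 detected genes were. Aqp3 and Aqp4 were at least 2-fold lower, as were 17.1% of detected genes (with genes below background taken at their bound, 10.7% were higher and 13.6% lower), and Aqp1 was within 2-fold by its brightest probe. Aqp4 passed the detection step only through the array on which it was bright, so it had to differ.

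**Figure D1:**
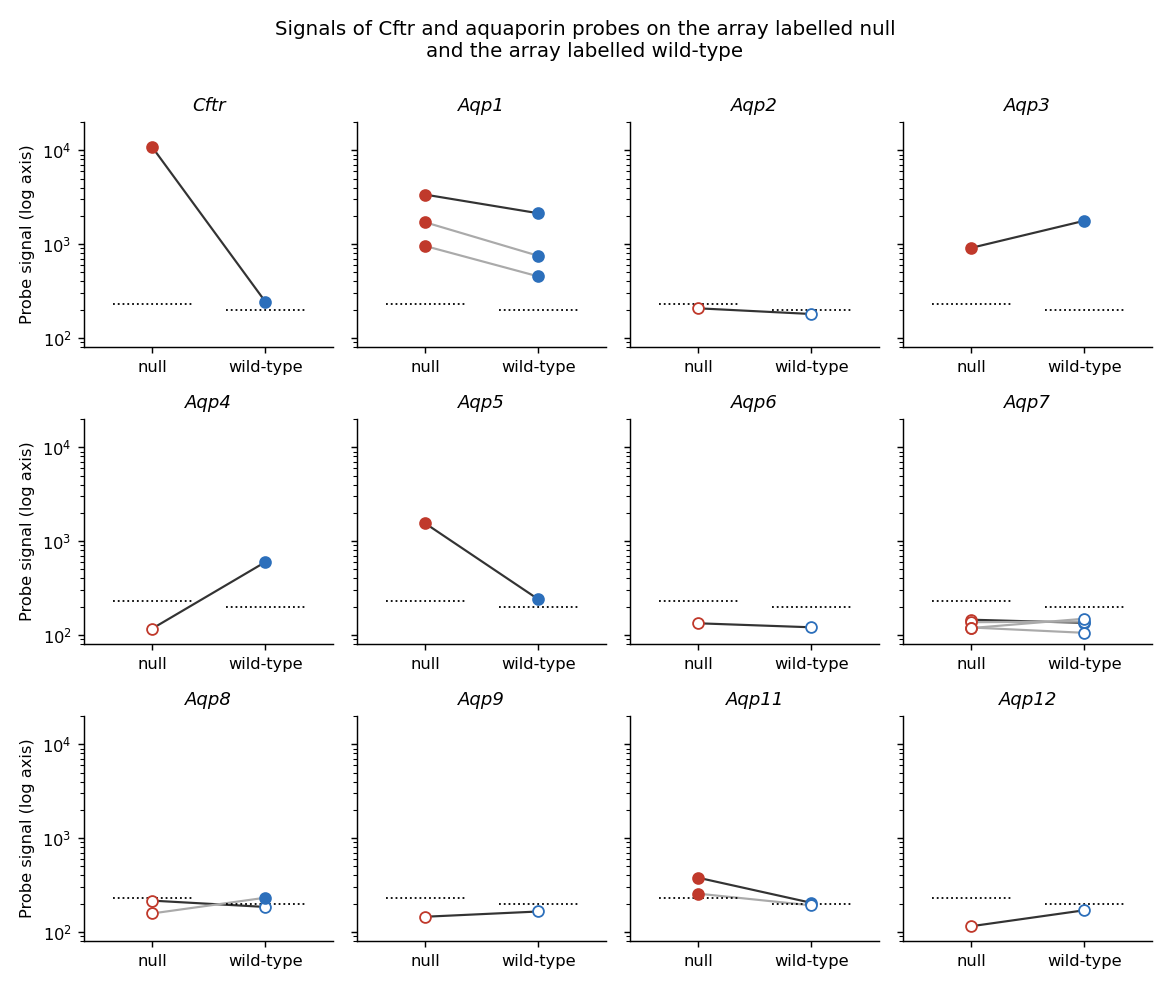
Probe signals (log axis) of the 12 members on the array labelled null (left, red) and the array labelled wild-type (right, blue). Lines join the same probe, black for the brightest probe of a gene and grey for others, filled points are detected, and dotted segments mark the 99th percentile of background probes (227 and 200.4). Cftr and Aqp5 stand far above that level on the array labelled null and just above it on the other, whereas Aqp4 is bright on the array labelled wild-type alone.

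Cftr had the widest gap of the members. Its single probe (ILMN_1259577) read 10830 on the array labelled null and 242 on the array labelled wild-type. The dim signal lay little above the background limit of 200.4, with 0.304% of background probes as bright. The normalized difference was 6.15, a 70.8-fold higher value on the array labelled null. The plain ratio of the signals was 44.7, and that of the authors' processed values (9117 and 232) was 39.2, so the size of the fold rests on how the dim signal is corrected while both ratios are far above 1. Among the 7633 genes detected on both arrays, Cftr had the 4th highest difference. In mouse stomach, Cftr is one of the transcripts used to mark spasmolytic polypeptide-expressing metaplasia that has intestinal traits.

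Aqp5 followed Cftr. It is the apical water channel of secretory glands such as the salivary and lacrimal glands, and in rodent stomach it is found in pyloric glands. Its probe read 1546 on the array labelled null and 239 on the array labelled wild-type, the second again close to background. The difference was 3.20, or 9.22-fold higher on the array labelled null, which was the 26th highest among genes detected on both arrays. The plain signal ratio was 6.48 and the ratio of the authors' values 5.68. Aqp5 lies between Aqp2 and Aqp6 in the genome, with no protein-coding gene between them in RefSeq. Neither neighbour was detected on either array. Aqp2, the vasopressin-regulated channel of the kidney collecting duct, read 206 on the array labelled null and 179 on the array labelled wild-type. Aqp6, a channel of intracellular vesicles in kidney intercalated cells, read 133 and 120 on those arrays. The high signal of that gene cluster was thus read by the Aqp5 probe alone.

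Aqp11, an unusual aquaporin of the endoplasmic reticulum best known from kidney proximal tubule, had 2 probes near background. The brighter (ILMN_1225901) read 378 on the array labelled null and 204 on the array labelled wild-type, a difference of 1.19 or 2.28-fold higher. Its other probe (ILMN_2670407) read 255 on the array labelled null and 191 on the array labelled wild-type, the second within background, and was at least 1.25-fold higher. Both probes pointed the same way, but averaged over them the difference was 0.83, and without background correction it was 0.67, each under 2-fold. With the authors' values it was 0.70 and with an offset of 50 it was 0.97. Of the 6 detected members, Aqp11 alone lost its side of the 2-fold line under any setting that could give it a value.

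The 250 bases before the RefSeq transcription start of Cftr, Aqp5 and Aqp3 (build GRCm38.p6) are shown because the first pair had the highest differences of the family and Aqp3 the lowest among members detected on both arrays. Capitals mark matches on either strand to the TATA box (letters TATAAA) or to the GC box (letters GGGCGG).
Cftr, chr6:18170437-18170686, strand +: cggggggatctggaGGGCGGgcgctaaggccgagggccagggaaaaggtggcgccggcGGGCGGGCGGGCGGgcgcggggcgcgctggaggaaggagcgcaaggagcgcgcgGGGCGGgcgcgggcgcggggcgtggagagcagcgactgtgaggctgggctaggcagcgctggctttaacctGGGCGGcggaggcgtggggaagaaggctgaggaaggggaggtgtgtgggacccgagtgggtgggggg
Aqp5, chr15:99590778-99591027, strand +: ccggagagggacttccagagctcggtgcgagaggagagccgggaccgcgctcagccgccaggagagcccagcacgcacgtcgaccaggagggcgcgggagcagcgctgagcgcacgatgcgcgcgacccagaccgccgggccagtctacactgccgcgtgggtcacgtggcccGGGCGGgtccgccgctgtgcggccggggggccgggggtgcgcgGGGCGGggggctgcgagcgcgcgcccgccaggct
Aqp3, chr4:41098184-41098433, strand -: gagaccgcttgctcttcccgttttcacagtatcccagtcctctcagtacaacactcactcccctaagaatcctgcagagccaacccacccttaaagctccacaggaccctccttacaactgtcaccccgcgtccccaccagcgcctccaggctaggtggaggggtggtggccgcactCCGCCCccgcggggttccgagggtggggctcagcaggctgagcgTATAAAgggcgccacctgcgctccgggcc
The Cftr window held 6 GC boxes, of which 3 overlap each other, and the Aqp5 window held 2. Neither held a TATA box. The Aqp3 window held 1 TATA box, starting 29 bases before the transcription start, and 1 GC box on the reverse strand. G and C made up 76.4% of the Cftr window, 78.4% of the Aqp5 window and 64% of the Aqp3 window, beside a median of 52.4% over 32851 promoter windows of the same length. Of those windows 32.7% held a GC box and 12.4% a TATA box. The Aqp1 window held 1 GC box and the Aqp11 window none. Other letters were searched on both strands and found in none of these 5 windows. They were CCAAT, held by 33.8% of all windows, the core of the cyclic AMP response element, TGACG, held by 17.8%, and the FOXA letters TGTTTNC, held by 17.8%. A match here is a run of letters and says nothing of a bound factor.

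Aqp1, the water channel of capillary endothelium and red cells, was read by 3 probes, all detected on both arrays. The brightest (ILMN_2756486) read 3370 on the array labelled null and 2131 on the array labelled wild-type, a difference of 0.42. The second (ILMN_2980661) read 1708 and 748 on those arrays, just past 2-fold after normalization, and the third (ILMN_2980663) read 954 and 452, a difference of 0.96. All 3 probes were higher on the array labelled null, but they disagree on whether the gap reaches 2-fold. Endothelial markers did not move as one. Of 9 detected endothelial genes, 1 was at least 2-fold higher and 2 were lower (1 with genes below background at their bound), with a median of -0.15. The junction protein Esam read 1585 on the array labelled null and 2255 on the array labelled wild-type, and Plvap, of the diaphragms of fenestrated capillaries, read 1862 and 2600. Robo4, another endothelial receptor, read 807 and 715. Summed over the 9, the signal was 7383 on the array labelled null and 7812 on the array labelled wild-type. The 3 detected erythroid markers, led by the globin Hba-a1 (3637 and 11197), were lower by that measure (2 at the bound). Their part in the Aqp1 values was not tested.

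Aqp3 passes glycerol as well as water and sits in basolateral membranes of surface epithelia, keratinocytes among them. It read 911 on the array labelled null and 1774 on the array labelled wild-type, a difference of -1.39 or 2.63-fold lower. Aqp7, the glycerol channel of fat cells and its next protein-coding neighbour in the genome, was below background on both arrays by all 4 probes, with signals of 118 to 145 on the array labelled null and 105 to 149 on the array labelled wild-type. Markers of squamous epithelium, which lines the forestomach and expresses Aqp3, were lower on the same array. Among 13 detected, 11 were lower by 2-fold or more and 1 was higher, and their summed signal was 7904 on the array labelled null and 132937 on the array labelled wild-type. Loricrin (Lor) read 1114 and 54602 on those arrays, and Krt10 1103 and 46758. The desmosomal protein Dsp read 3463 and 1927, a difference of 0.60. Of 3 surface mucous cell genes, the mucin Muc5ac was lower (2670 and 39881). Gkn1 (50524 and 44373) and Gkn2 (51972 and 44616), gastrokines of the same cells, differed by 0.23 and 0.25. Their signals lay near the ceiling of the arrays, where differences are compressed. The part of squamous or mucous cells in the Aqp3 difference was not tested.

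Aqp4 is the basolateral water channel of parietal and chief cells in rodents and is better known from astrocyte endfeet. Its probe read 116 on the array labelled null, inside the background, and 599 on the array labelled wild-type. The plain signal ratio was 5.14, and after background correction the value was at least 5.71-fold lower on the array labelled null. Parietal markers were lower with it. Of 10 detected parietal genes, 8 were at least 2-fold lower and 2 higher, with a median of -3.75 (-3.40 at the bound) and a summed signal of 19941 on the array labelled null and 186293 on the array labelled wild-type. The chloride channel relative Clic6 read 4460 and 29461 on those arrays and creatine kinase Ckb 3746 and 48826, while carbonic anhydrase Car2, which other epithelia share, read 9833 and 3047. The other higher gene of the list, Slc9a4, read 413 and 199 and was at least 2.70-fold higher. The proton pump subunit Atp4a, named after its values were seen, read 265 and 43340. Of 5 chief cell genes, 2 were lower (intrinsic factor GIF, 2372 and 51492, and the acidic chitinase CHIA, 1352 and 48795), 1 was higher and 2 were within 2-fold, among them the pepsinogen Pgc (38866 and 50462). Of the glial markers, 2 of 5 were detected, and S100b, detected on the array labelled null alone, was at least 1.74-fold higher. Among skeletal muscle markers, another tissue with Aqp4, Ckm alone was detected (147 and 417), on the array labelled wild-type. The part of parietal and chief cells in the Aqp4 difference was not tested.

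**Figure D2:**
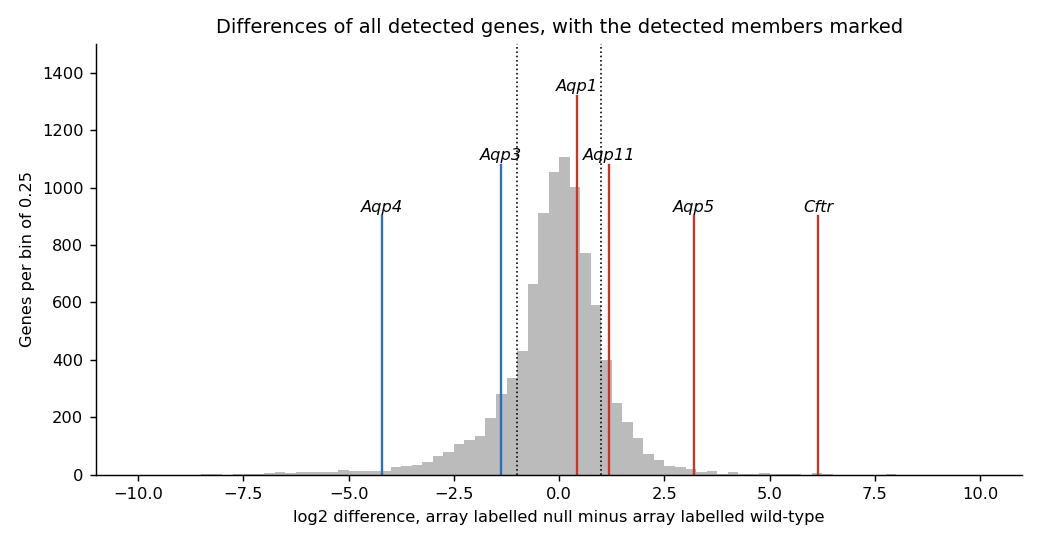
Number of genes by log2 difference (array labelled null minus array labelled wild-type, bins of 0.25) for the 9359 genes detected on at least 1 array, with lines at the 6 detected members and dotted lines at 2-fold. Cftr (6.15) and Aqp5 (3.20) lie in the upper tail, Aqp1 (0.42) in the centre, and Aqp4 is drawn at its fitted value, which on the array labelled null is below background.

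The remaining members were not detected by their brightest probe, and 3.16% of such genes differed by 2-fold or more. Aqp8, found in pancreatic acinar cells, liver and colon, had 2 probes that disagreed. One (ILMN_2756379) read 215 on the array labelled null and 184 on the array labelled wild-type, below background on both. The other (ILMN_2854157) read 157 and 231 on those arrays, which was detected on the array labelled wild-type and at least 1.38-fold lower on the array labelled null. Aqp12, restricted to pancreatic acinar cells in the mouse, read 115 on the array labelled null and 170 on the array labelled wild-type, where 3.88% of background probes were as bright. Its difference was -1.11, which counts Aqp12 as a further lower member where the detection limit is loosened to 0.05 or left out. Pancreatic acinar markers were lower on the array labelled null in 18 of 19 detected genes (17 at the bound), with 17 of 20 below background there and 1 of 20 on the other array. The phospholipase Pla2g1b read 4161 and 47983, the lipase relative Pnliprp2 382 and 10259, and the elastase ELA1 6446 and 7513. The part of acinar tissue in the Aqp8 values was not tested. Aqp9, a glycerol and urea channel of liver and neutrophils, read 145 on the array labelled null and 165 on the array labelled wild-type. Neutrophil markers were higher on the array labelled null in 6 of 7 detected genes (5 at the bound), with S100a8 at 10127 and 240, Ltf at 12415 and 1904 and S100a9 at 6103 and 779, but the Aqp9 probe stayed inside the background on both arrays. The fat marker Cfd read 179 on the array labelled null and 4495 on the array labelled wild-type, a plain signal ratio of 25.1 and at least 49.9-fold lower after background correction. Adipoq read 159 and 605 on those arrays, a plain ratio of 3.80 and a corrected bound of 5.78, and Cidec was 3.13-fold lower. These were the 3 detected fat markers of 6 on the array. The other genes of that list were below background on both arrays. Aqp7 of fat cells was below background throughout.

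Cftr and Aqp5 were set beside markers of the glands in which they are known. Of 4 detected mucous neck and pyloric gland genes, 3 were at least 2-fold higher and none lower, with a median of 1.50. The antral and duodenal factor Pdx1 read 1000.3 on the array labelled null and 297 on the array labelled wild-type, the gland mucin Muc6 read 1067 and 467, and the trefoil peptide Tff2 read 46750 and 45896. The summed signal of the list was 49483 on the array labelled null and 46848 on the array labelled wild-type, most of it Tff2. Most detected genes of the duodenal enterocyte and goblet list went the other way. Of 10 on the array 8 were below background on the array labelled null and 5 on the array labelled wild-type, and of 5 detected 4 were lower (3 at the bound). Vil1, which builds the brush border, was the exception at 5.99-fold higher (4277 and 674), while the apolipoprotein Apoa1 read 237 and 41749 and the goblet peptide Tff3 195 and 1087. Tff3 was the only goblet gene of that list on the array. CLCA3, a goblet cell product outside the list, was 30.0-fold higher on the array labelled null (39177 and 1322). The lining enzymes and fatty acid binding proteins Si, Akp3, Fabp1 and Fabp2, named after their values were seen, were inside the background on both arrays. Smooth muscle markers were lower in 10 of 10 detected genes (9 at the bound), among them Acta2 (14788 and 52259), Actg2 (8168 and 24368) and Des (1905 and 10319). The part of tissue makeup in the Cftr and Aqp5 values was not tested.

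**Figure D3:**
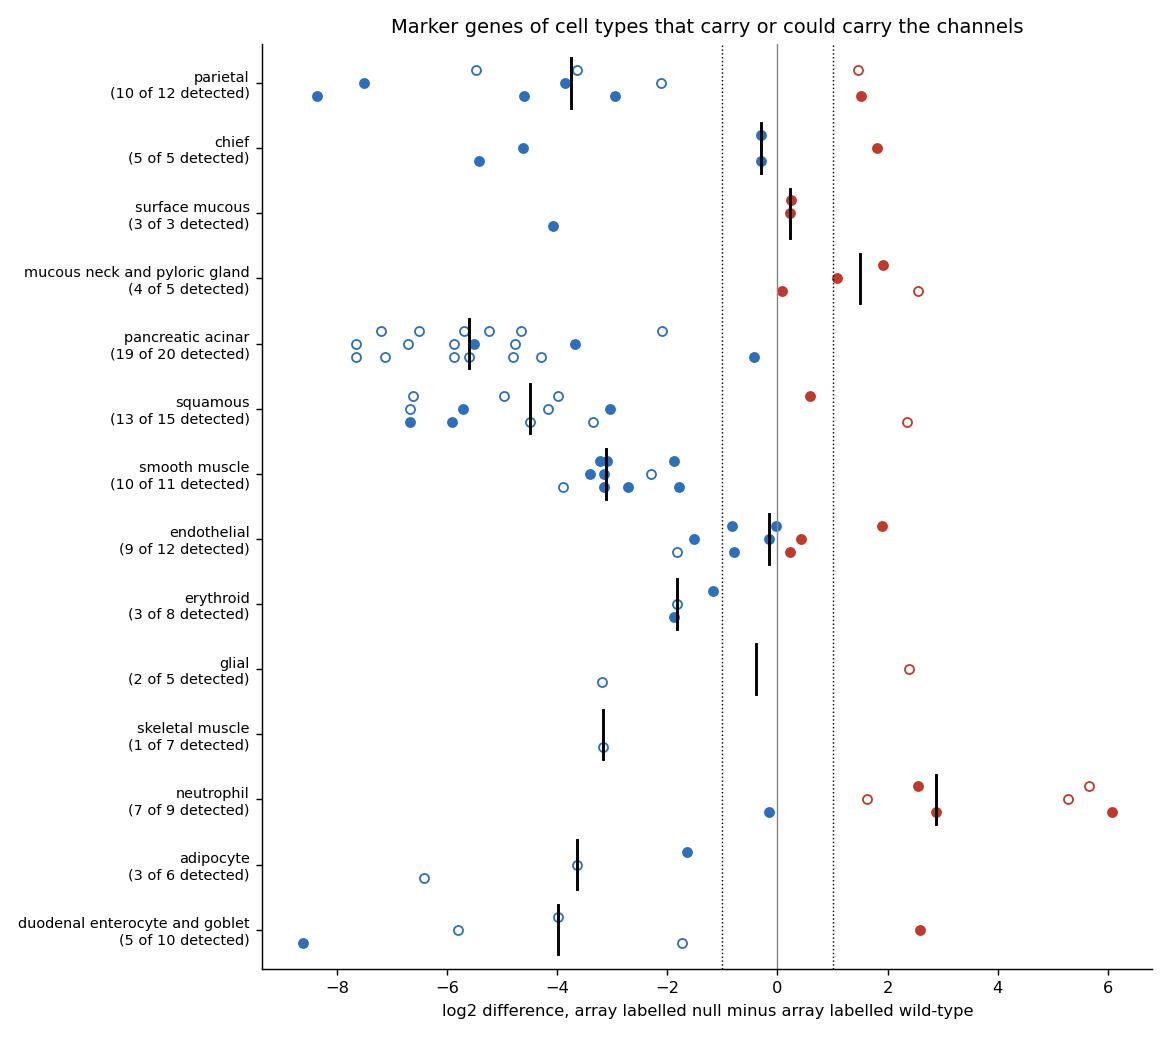
Log2 differences (array labelled null minus array labelled wild-type) of detected marker genes of 14 cell types, with black bars at list medians and dotted lines at 2-fold. Filled points were detected on both arrays and open points on 1, red is higher on the array labelled null and blue lower. Acinar, squamous, smooth muscle and parietal markers lie mostly to the left, neutrophil markers to the right, and endothelial markers around 0.

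Fluid secretion through Cftr also needs transporters that load the cell with ions, potassium channels that keep the driving force, scaffolds that hold Cftr at the membrane, and receptors that raise cyclic nucleotides. Of 43 detected genes in 5 lists of such partners, 9 were at least 2-fold higher, 15 lower (13 at the bound) and 19 within 2-fold, with a median of -0.12. The shares among all detected genes were 13.1% higher and 17.1% lower. Both partner counts, 9 and 15 of 43, were larger shares than these. The median of the partners lay near 0, and neither direction held most of them. The lists were chosen with earlier results known, so these shares carry no test.

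Apical transporters were split. CLCA3, a secreted calcium-dependent regulator of chloride current from goblet cells, read 39177 on the array labelled null and 1322 on the array labelled wild-type, 30.0-fold higher. CLCA genes are a family of similar sequence named as on the array, so their values are uncertain. CLCA6 read 151 and 643 on those arrays, a plain signal ratio of 4.25, and was at least 6.23-fold lower after background correction. The anion transporter Slc26a9, which works beside Cftr in gastric and airway epithelium, read 329 and 1202 on those arrays, 6.47-fold lower. Slc26a6, a chloride and bicarbonate exchanger, read 196 and 430 on those arrays, a plain signal ratio of 2.19, and was at least 3.74-fold lower after background correction. Ano1, the calcium-activated chloride channel, was within 2-fold (1570 and 785). In all, 2 of 6 detected apical genes were higher and 3 lower.

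Basolateral ion loading was near level for its main entry step. The sodium, potassium and chloride cotransporter Slc12a2 read 18202 on the array labelled null and 17587 on the array labelled wild-type, a difference of -0.12, and the sodium pump subunit Atp1b1 differed by 0.49. The potassium channel subunit Kcne3, which supports chloride secretion in intestine, read 510 and 121 and was at least 3.58-fold higher. The potassium channel Kcnq1, named after its values were seen, was inside the background on both arrays (135 and 145). The calcium-activated potassium channel Kcnn4 was 2.69-fold higher (1221 and 440). The anion exchanger Slc4a2, which parietal cells use to export bicarbonate, was 3.99-fold lower (4214 and 14179), on the array where parietal markers were lower. The part of parietal cells in the Slc4a2 difference was not tested. Of 9 detected genes 2 were higher, 3 lower and 4 within 2-fold.

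Scaffold and trafficking genes held no member at least 2-fold higher among 11 detected, and 4 were lower (3 at the bound). The membrane scaffold Slc9a3r2 read 704 on the array labelled null and 2431 on the array labelled wild-type, 4.91-fold lower. Its relative Slc9a3r1, the scaffold best known for tethering Cftr, was 2.08-fold lower (2768 and 4740), with a plain signal ratio of 1.71. The endocytic adaptor Dab2 was 2.50-fold lower, with a plain signal ratio of 1.78. Stx1a, a syntaxin that binds Cftr, read 170 on the array labelled null and 244 on the array labelled wild-type, a plain signal ratio of 1.43 and a corrected bound of 1.53-fold lower. Myo6 (-0.01) and Snap23 (0.15), motor and fusion proteins of vesicle traffic, were near level.

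Inputs through cyclic nucleotides went both ways. Gnas, the G protein subunit that activates adenylyl cyclase, was 4.78-fold higher (2854 on the array labelled null and 576 on the array labelled wild-type). The secretin receptor Sctr read 256 and 684 on those arrays, 5.29-fold lower. The guanylin genes Guca2a and Guca2b, ligands that open Cftr through cyclic GMP in the intestine, were both lower. Guca2a read 181 on the array labelled null and 1202 on the array labelled wild-type, a plain signal ratio of 6.64 and at least 12.5-fold lower after background correction. Guca2b read 119 and 307 on those arrays, at least 2.29-fold lower. Gucy2c (112 and 109) and Prkg2 (143 and 159), of the same list, were inside the background on both arrays. Both were named after their values were seen. The protein kinase A subunits Prkacb (-0.82) and Prkar1a (-0.39) were within 2-fold. Of 9 detected genes 2 were higher and 3 lower.

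Among the paracellular pores and transcription factors, Cldn2, a tight junction pore for cations and water, was 232-fold higher. Its signals were 27123 on the array labelled null and 211 on the array labelled wild-type, the second close to background. The factor Foxa1, which binds regulatory elements in gut epithelia, was 3.36-fold higher (5241 and 1385). Cdx2 was at least 1.13-fold lower, and Gata4 (-0.69) and Gata6 (-0.58) were within 2-fold. Of 8 detected genes 3 were higher and 2 lower (1 at the bound).

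**Figure D4:**
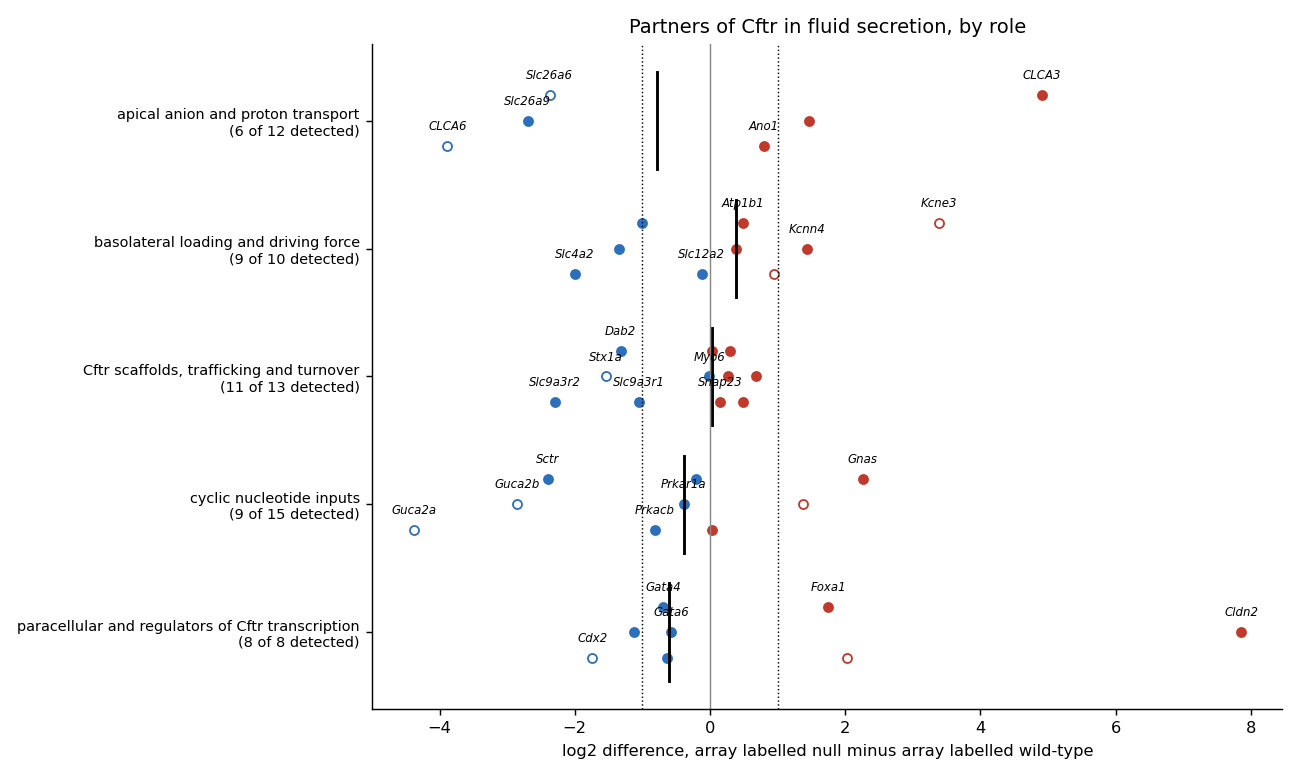
Log2 differences (array labelled null minus array labelled wild-type) of detected Cftr partner genes in 5 lists by role, with black bars at list medians and dotted lines at 2-fold. Filled points were detected on both arrays and open points on 1. Cldn2 (7.86) and CLCA3 (4.91) stand to the right as Cftr does, while the apical anion transporters Slc26a9 (-2.69) and Slc26a6, the guanylins and the scaffold Slc9a3r2 (-2.30) lie to the left.

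The genes most like each detected member were found as the 3 nearest by straight-line distance over the normalized log2 values of the 2 arrays, which says only that their probes read alike. Nearest to Cftr were S100a8 (distance 0.10, signals 10127 on the array labelled null and 240 on the array labelled wild-type), the surfactant protein gene Sftpd (0.35, 13895 and 244) and the array's ABPB (0.44, 13885 and 268). Nearest to Aqp5 were the array's PPAPDC1B (0.26), Tmc5 (0.28) and 9930023K05RIK (0.37). Aqp4 lay near 2300005B03RIK and Irx5, with distances of 0.07 and 0.15, although its value on the array labelled null is below background and has no order. Aqp3 lay nearest to Rapgefl1, Ints1 and Sidt2, with distances of 0.02 to 0.06. Aqp1 lay nearest to Cops5, LOC100046855 and Dpy30, and Aqp11 to Cdcp1, Slc39a10 and B3galnt2, at distances of 0.01 to 0.05.

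**Figure D5:**
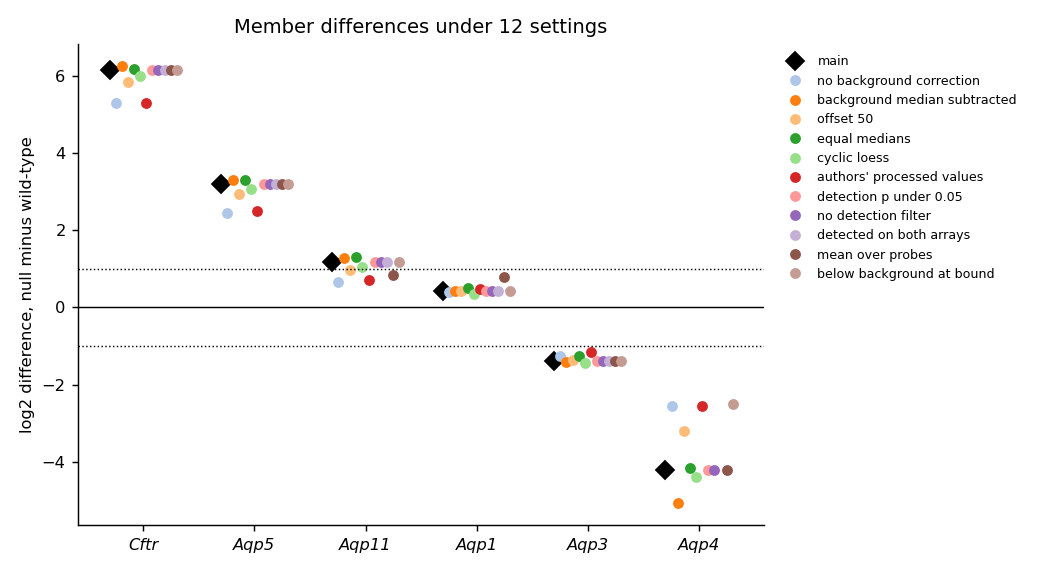
Log2 differences (null minus wild-type) of the 6 detected members, with a black diamond for the setting used in the text, coloured points for 11 other settings and dotted lines at 2-fold. Cftr stays between 5.29 and 6.26 and Aqp5 between 2.45 and 3.32, Aqp11 crosses the 2-fold line, and Aqp4 spreads from -5.07 to -2.51.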

How the data were processed

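Glandular stomach RNA was measured on 2 Illumina MouseRef-8 v2 bead arrays, 1 labelled Agr2 null and 1 labelled Agr2 wild-type, per the labels. The authors deposited linear probe intensity without normalization, and the bead summary is not stated in the labels. Their deposited processed intensity values equal those signals times 1 factor per array (0.842 null, 0.960 wild-type), found from the values.

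Background was corrected with limma 3.58.1 (R 4.3.3) by the normal-exponential model, with parameters from 1314 olfactory and vomeronasal receptor probes and an offset of 16, then quantile normalized and taken to log2. Detection meant that a share under 0.01 of background probes was as bright. For a gene with several probes, the brightest on average was used. Where 1 array was below background, a fold is a bound, against the higher of the dim value and the lowest detected value. Mean probe signal was 925 (null) and 811 (wild-type). No test was made with 1 array per group. Calls are by size, at least 2-fold.

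Members and lists were chosen with earlier results of these data known. Named genes were the members, Agr2, in each partner list up to 4 largest differences of at least 2-fold and the 2 brightest genes within 2-fold, the 3 brightest genes of each marker list, and the 3 nearest genes of each detected member. All 12 member symbols, and 13261 of 16928 on the array, matched RefSeq (GRCm38.p6), which also gave the promoter sequences. Other symbols keep the array's name. A few genes that the rule names are not reported here. The steps were tested on simulated data.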

Additional observations from a re-analysis of the deposited data

How the results depend on the processing

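Settings tried were no background correction, subtraction of the background median, an offset of 50, equal medians, cyclic loess, the authors' values, a looser, absent or stricter detection filter, averaged probes, and bounds for genes below background. Member counts of 3 higher and 2 lower moved by over 1.5 times in 1 case, with 1 member lower (Aqp3) when detection on both arrays was required, which leaves out Aqp4 by construction. Partner genes lower then numbered 9. With detection p under 0.05, or no filter, 3 members were lower, Aqp12 being added. Over all genes, 679 were higher and 1012 lower without background correction, 799 and 933 with the authors' values, and 808 and 816 with detection on both arrays, against 1227 and 1597. No setting turned the direction of a detected member. Equal medians gave 1454 higher and 1445 lower, a share higher of 50.2% against 43.4%, with the median of all genes at 0.12. Signals close to background limit the folds of Cftr, Aqp5, Aqp11 and Cldn2. No paired analysis was possible because each group has 1 array.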
